A study of Mus musculus with 9 samples.

Results

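Smooth muscle and fibroblast matrix genes were followed in whole mouse colons after deletion of Ptch1, the receptor that keeps Hedgehog signalling silent when no ligand is bound. The set held 52 genes in 3 lists: 20 contractile genes of smooth muscle, 10 collagen genes, and 22 genes of other matrix proteins, matrix enzymes and fibroblast identity. Members were found as the rows of the deposited table, 1 row per Affymetrix probe set, to which the platform annotation gives exactly 1 gene symbol. All 52 genes had at least 1 such row and together they had 115 of 34945 rows, with 42 contractile, 19 collagen and 54 other matrix rows. A single row stood for 16 of the genes, and 36 had 2 to 6 rows.

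The mutant group (5 arrays) carried Rosa26-CreERT2, a tamoxifen-inducible Cre recombinase at a locus active throughout the body, together with loxP-flanked Ptch1 (Ptch1 fl/fl). The wildtype group (4 arrays) carried the same Cre with unmodified Ptch1 (Ptch1+/+), so Cre and tamoxifen were shared by all animals. Both groups had 1 mg tamoxifen on each of 5 days, and colons were isolated at day 12, on a mixed C57BL/6 and Balb/c background. Cre recombination removes exons 8 and 9 of Ptch1 and was not limited to mesenchyme, and whole colons mix epithelium, muscle, stroma, vessels, nerves and immune cells. The labels used here state no ages and do not say that each array is a separate animal. The p-values therefore measure only how these arrays spread, some of which may be technical.

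Hedgehog ligands are made by the gut epithelium and are received mainly by the mesenchyme beneath it, where GLI transcription factors pass the signal on. That mesenchyme includes the smooth muscle of the muscularis and muscularis mucosae, and the fibroblasts of the lamina propria and submucosa. Smooth muscle cells contract through actin and myosin filaments whose genes are switched on by serum response factor and its partner myocardin, bound at CArG boxes. Fibroblasts secrete the collagens, glycoproteins and proteoglycans of the matrix, together with the enzymes that trim and cross-link it. Forkhead factors of the Foxf and Foxl families are known in the gut mesenchyme as genes that follow Hedgehog signalling.

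CArG boxes are shown first because they are the sequence feature by which contractile genes are known to be switched on together. RefSeq promoter windows (GRCm38.p6, 250 bases before to 50 bases after the gene start) were found for 38 of the 52 members. Shown are stretches of Acta2, the smooth muscle actin gene, and Myl9, a myosin light chain gene. Capitals mark the box, each sequence runs 5′ to 3′ on the gene's strand, and the Acta2 gene lies on the minus strand and Myl9 on the plus strand.
Acta2, chr19:34255428-34255477: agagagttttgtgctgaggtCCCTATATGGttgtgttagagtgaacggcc
Acta2, chr19:34255378-34255427: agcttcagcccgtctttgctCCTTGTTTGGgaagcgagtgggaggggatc
Myl9, chr2:156775283-156775332: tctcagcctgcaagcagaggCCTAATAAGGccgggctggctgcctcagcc
Myl9, chr2:156775345-156775394: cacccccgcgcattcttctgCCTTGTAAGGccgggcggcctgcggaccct
The first Myl9 stretch holds a full CArG box, whose pattern is the same on both strands, and it was the 1 full box among 43 member promoters, a share of 2.33% against 1.63% of all 32851 promoters in the table. The other 3 are CArG-like boxes, in which exactly 1 of the 6 central bases is G or C. This looser form was searched after the strict one had been counted. A full or CArG-like box stood in 8 of 43 member promoters (18.6%) and in 9.98% of all promoters. Among the contractile members it was in 3 of 17 (17.6%), those of Acta2, Myl9 and the intermediate filament gene Synm. It was no rarer in the other lists, with 2 of 9 collagen promoters (22.2%) and 3 of 17 other matrix promoters (17.6%). A GLI site, searched as GACCACCCA on both strands, was in 0 of 43 member promoters and in 0.253% of all promoters. These matches describe letters in a short window and say nothing about the factors themselves.

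What a row name carries limits what can be said of a gene. Rows of the same gene should give related readings, so agreement between the first 2 rows was measured for the 36 members with several rows. The rank of the absolute moderated t, the strength of the mutant-wildtype difference whatever its direction, correlated at 0.47 between them (Spearman, across genes, which are not independent replicates and share the 9 arrays). It was 0.25 over 9010 genes of the array. By list it was 0.23 for 11 contractile genes, 0.21 for 7 collagen genes and 0.59 for 18 other matrix genes. By this measure only the other matrix rows matched better than those of the array. The mean log2 level correlated at only 0.18 in the members and 0.03 over the array, and the signed t at 0.22 and 0.01. The direction matched in 21 of 36 member pairs (58.3%) and in 50.9% of pairs over the array.

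**Figure D1:**
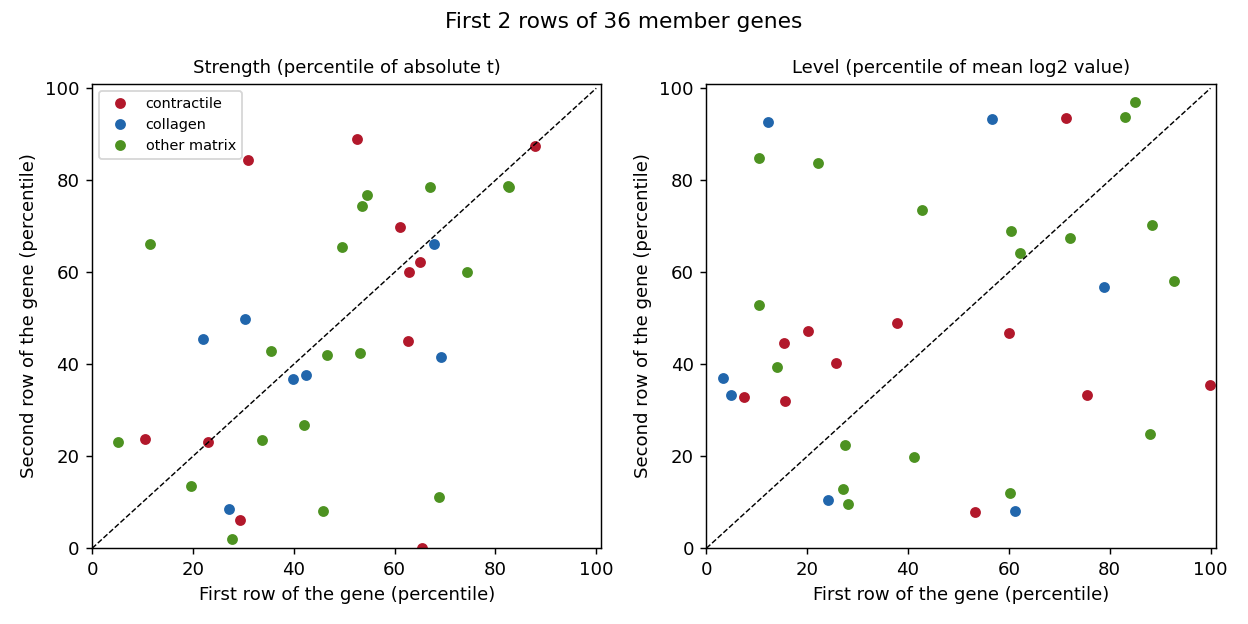
Each point is 1 of the 36 member genes with several rows, placed by its first row (x axis, percentile) and second row (y axis, percentile), for strength on the left and for mean level on the right, with the dashed line at equality. Points keep nearer to the line for strength (Spearman 0.47) than for level (0.18).

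In strength, the 2 rows of a member lay a median of 14.8 percentiles apart, against 23.2 over the array. Synpo2 (22.9 and 23.2), Des (87.9 and 87.5) and Col1a1 (67.9 and 66.2) had the closest pairs. The pairs of Synm (65.4 and 0.157) and Fbln1 (68.9 and 11.1) were far apart, though the remaining row of Fbln1 stood at 73.9. In a whole colon, smooth muscle genes are textbook examples of abundant transcripts, yet the contractile rows had a median level at the 43.6th percentile of the array. Only 3 of those 42 rows were above the 90th percentile by level. For these reasons the strength of each row is given below, and no direction, fold change or level is given for a named gene. A call belongs to the row that carries the name and is uncertain for a single gene.

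The libraries were level, with array medians between 53.8 and 54.7 intensity units. All 4 rows of Hhip, a decoy receptor gene that Hedgehog signalling switches on, passed the test (limma adjusted p from 0.0122 to 0.0124). Of these rows, 3 differed in the same direction and 1 in the opposite, so they cannot show which group is the mutant. With array number as a covariate none of the 4 passed (limma adjusted p from 0.0709 to 0.137). The 3 rows of Ptch1 stood at adjusted p = 0.0761, 0.0894 and 0.834, and the single row of Gli1 at 0.153. Nothing in the sources used here places the Ptch1 probe sets within the deleted exons, so they check nothing about the deletion. The array number in the sample titles was lower in mutants (mean 4.2) than in wildtypes (mean 8), so this number followed the groups in part. The labels do not say what the number stands for.

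Mutant and wildtype colons differed in 1 of the 115 rows at an adjusted p under 0.05 (0.87%), by limma on log2(intensity + 16) with Benjamini-Hochberg adjustment over all 45037 probe sets tested. Over all rows with 1 gene symbol the share was 5.19%. The row belonged to Lum, which encodes lumican, a small proteoglycan that binds collagen fibrils. None of the 42 contractile rows and none of the 19 collagen rows passed. At an unadjusted p under 0.05 there were 10 member rows (8.70%), against 21.1% of all rows, split as 5 contractile, 1 collagen and 4 other matrix rows. In a whole colon, a change in the number of cells of a type and a change in RNA per cell cannot be told apart.

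The median strength of the member rows lay near the middle, and single rows were spread widely around it. Each row was given the percentile of its absolute t among the 34945 rows with 1 symbol, where 50 is the middle. The median over the 115 rows was 47.3, with quartiles of 23.6 and 66.6, and 62 rows lay below the middle. The members were sparse at the top, with 1 row above the 90th percentile, where 10.0% of all rows lie by construction. The 5 mutant and 4 wildtype arrays did not overlap in 8 member rows (6.96%), against 9.78% of all rows. A member row with the median standard error of 0.06 on the log2 scale needed a difference of 0.24 to pass the threshold, an absolute t of 4.17.

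**Figure D2:**
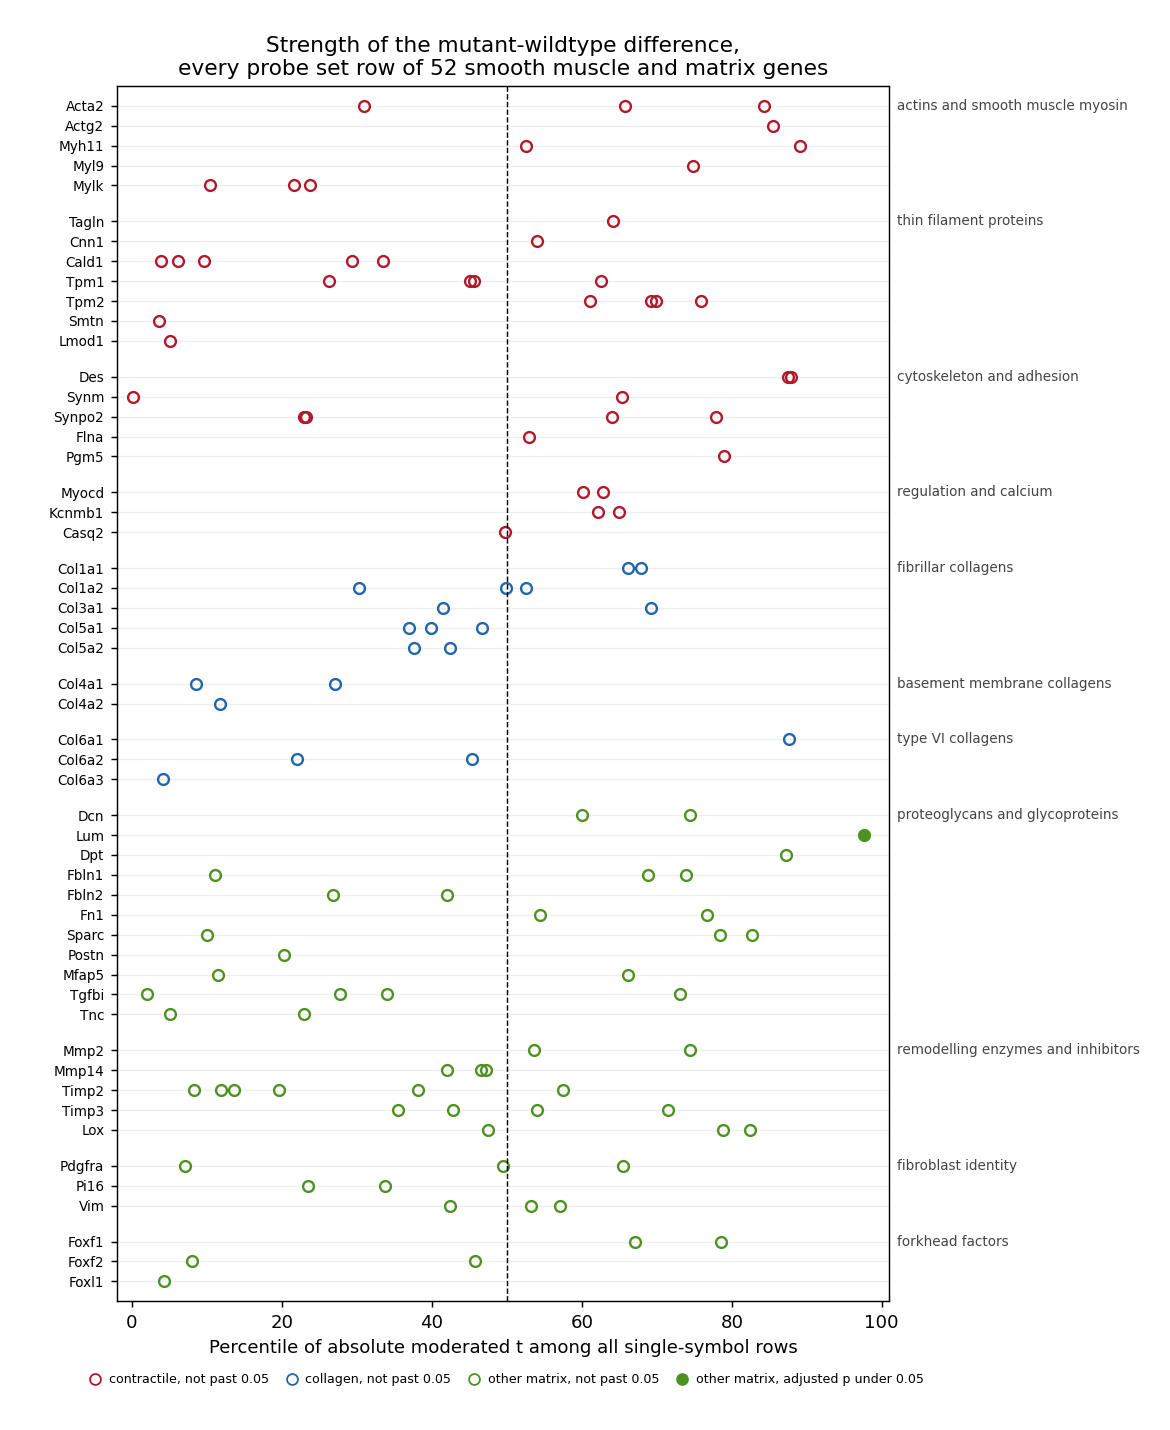
Every row of the 52 genes is a circle at the percentile of its absolute moderated t among all rows with 1 symbol (x axis), with genes grouped by role (y axis), colour giving the list and the dashed line the middle percentile. The single filled circle is the Lum row at 97.7, the only one past an adjusted p of 0.05, and the next highest, of Myh11, stands at 89.0.

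By gene, 18 of the 52 had every row below the middle percentile, 19 had every row above it and 15 had rows on both sides. At or below the 80th percentile lay 88.1% of contractile, 94.7% of collagen and 92.6% of other matrix rows, against 80% of all rows by construction. Members were thus fewer above it than rows of the array. Above it stood 10 rows of 9 genes, namely Lum, Myh11, both rows of Des, Col6a1, Dpt, Actg2, Acta2, Sparc and Lox. These include the genes for the main contractile myosin and for the muscle intermediate filament beside matrix genes. At the other end, 78 of the 115 rows had an adjusted p above 0.5. Most rows of the array did too, since a row at percentile 62.9 (of Myocd) had a limma adjusted p of 0.506.

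To show the arrays behind these ranks without a direction or a level, each array was placed along its row's own range, from 0 at the end where the mutants lay to 1 at the end where the wildtypes lay. The ends were set by the group means, so the mutants' lean towards 0 is no finding. For Lum (row 1423607_at, limma adjusted p = 0.0269, absolute t 5.16), mutants lay at 0, 0.238, 0.135, 0.165 and 0.17. Its wildtypes lay at 0.525, 0.459, 0.755 and 1. The groups did not overlap, the nearest arrays were 0.221 of the range apart, and the mutants were packed more closely than the wildtypes. The call of Lum was lost without mutant replicate 1, 2 or 3 or wildtype replicate 3 or 4 (adjusted p from 0.0512 to 0.0851). It was lost as well with array number as a covariate (adjusted p = 0.256), where 0 member rows and 0.0773% of all rows passed. The percentile of the Lum row ranged from 96.1 to 98.9 as single arrays were left out, and was 92.9 with the covariate.

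**Figure D3:**
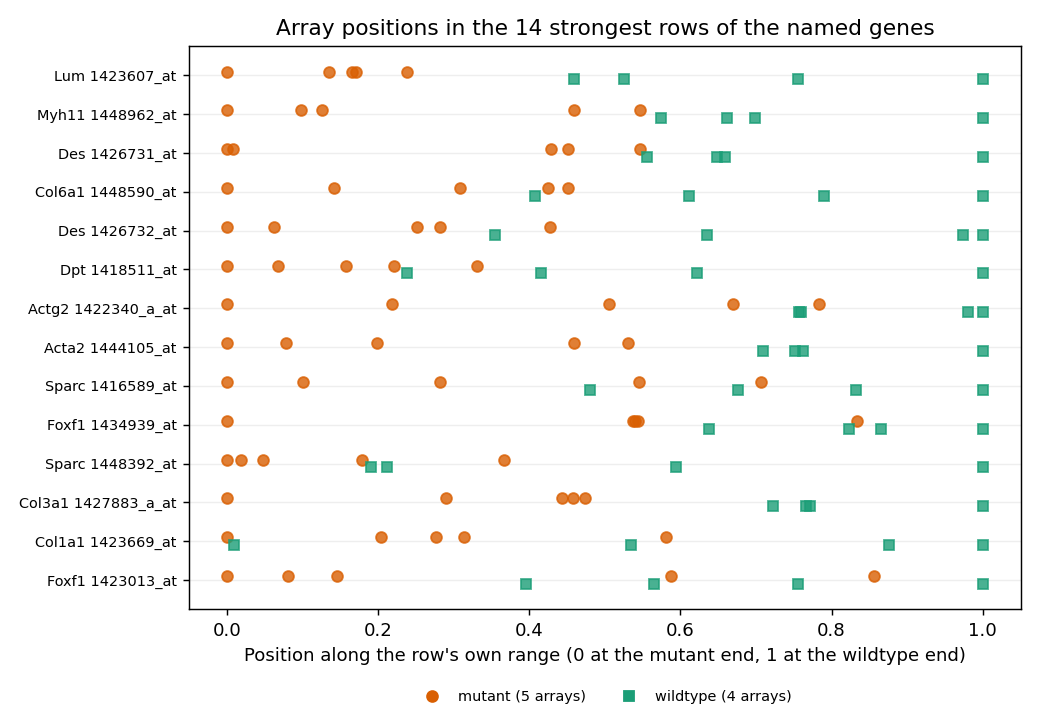
The 14 strongest rows of the 17 genes chosen for description are drawn, from Lum at the top to Foxf1. Rows of other members are left out, also where they ranked above some of those drawn, as for Lox (82.5). Circles are the 5 mutant arrays and squares the 4 wildtype arrays. The x axis is each row's own range, with 0 at the mutant end and 1 at the wildtype end (no unit). Groups are separate in the rows of Lum, Myh11, Des 1426731_at, Acta2 and Col3a1, and mix in the others.

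Contractile genes had 0 of 42 rows past the threshold and 5 at an unadjusted p under 0.05 (11.9%, against 21.1% of all rows). Their median percentile was 57.1, which ranged from 49.3 (without wildtype replicate 2) to 57.5 when single arrays were left out. Groups were separate in 4 of these rows (9.52%), near the 9.78% of all rows. Actins, myosin and the myosin kinase, the filaments that generate force, had the strongest of them. Myh11, the smooth muscle myosin heavy chain, had rows at percentiles 89.0 (adjusted p = 0.112) and 52.6 (0.63).
In the stronger Myh11 row, mutants lay at 0.098, 0.126, 0, 0.459 and 0.547 of the range and wildtypes at 0.574, 0.699, 0.661 and 1. The groups were apart by only 0.028 of the range, with mutant replicates 4 and 5 next to the wildtypes. In its other row, wildtype replicate 4 lay at the mutant end and wildtype replicate 1 at the wildtype end, so the wildtypes alone spanned the whole range.

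Acta2 encodes the smooth muscle actin of vessels, and also of gut muscle and myofibroblasts, and its 3 rows stood at percentiles 84.4, 65.7 and 30.9 (adjusted p = 0.177, 0.464 and 0.832). In the strongest, mutants lay at 0.198, 0.459, 0.078, 0 and 0.531 and wildtypes at 0.762, 0.751, 0.709 and 1. That row separated the groups, by 0.177 of the range, and the other 2 rows of Acta2 did not. Actg2, the actin typical of visceral muscle, had 1 row at percentile 85.5 (adjusted p = 0.161), in which mutant replicate 1 (0.783) lay beyond wildtype replicates 1 and 3 (0.759 and 0.757). Myl9, the regulatory light chain whose phosphorylation starts contraction and whose promoter stretches are printed above, had a row at 74.8 (0.325). Mylk, the kinase that phosphorylates it, had 3 rows between percentiles 10.4 and 23.8.

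Proteins of the thin filament had 17 rows with a median percentile of 45.0 and none at an unadjusted p under 0.05. Tagln, the actin-bundling transgelin, had a row at 64.2 (adjusted p = 0.489), where mutants spanned 0 to 0.752 and wildtypes 0.394 to 1, so the groups overlapped widely. Cnn1, the calponin that restrains myosin, stood at 54.1. The 4 rows of Tpm2, a tropomyosin that winds along actin, lay close together between 61.1 and 75.9, while 4 rows of its relative Tpm1 lay between 26.2 and 62.6. Caldesmon (Cald1), which restrains the pull of myosin on actin, had 5 rows and all were at or below 33.5. Smtn (3.67) and Lmod1 (5.03), an actin-binding smoothelin and an actin nucleator, were among the weakest rows of the set.

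In the intermediate filaments and adhesion plaques, Des, which encodes desmin, had both rows high, at percentiles 87.9 and 87.5 (adjusted p = 0.13 and 0.137). In the first, mutants lay at 0.008, 0.451, 0, 0.546 and 0.429 and wildtypes at 0.556, 0.659, 1 and 0.649, apart by 0.01 of the range. In the second, wildtype replicate 4 (0.355) lay on the mutant side of mutant replicate 5 (0.428), and the remaining arrays were apart. Desmin was thus alike in strength over its 2 rows, with neither past the threshold. With array number as a covariate these rows stood at percentiles 58.9 and 77.2. Pgm5, a protein of adhesion plaques, had a row at 78.9, the actin cross-linker Flna one at 52.9, and Synpo2, an actin-bundling protein of Z-discs and dense bodies, had rows from 22.9 to 77.9. Synm, the desmin partner synemin, held the weakest row of all members (0.157).

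Regulators had 5 rows with a median percentile of 62.1 and none at an unadjusted p under 0.05. Myocd, the coactivator that drives the contractile programme, had rows at 62.9 and 60.1 (adjusted p = 0.506 and 0.541), and wildtypes overlapped the mutants in both. Kcnmb1, the beta subunit of the calcium-activated potassium channel, had rows at 65.0 and 62.1, and Casq2, a calcium store protein, stood at 49.8. Splitting the contractile genes that have a promoter entry by a full or CArG-like box gave a median percentile of 65.5 over 6 rows of 3 genes with a box, and 47.7 over 30 rows of 13 genes without one. The rows with a box reached from 0.157 to 84.4, and 0 rows of either kind passed the threshold.

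Collagen genes had 0 of 19 rows past the threshold and 1 at an unadjusted p under 0.05 (5.26%, against 21.1% of all rows). Their median percentile was 41.5, with 14 rows below the middle. Leaving out single arrays moved that median from 30.9 (without wildtype replicate 3) to 52.1 (without mutant replicate 3). Fibrillar collagens, the rope-forming types I, III and V, had 12 rows between percentiles 30.2 and 69.3. Col1a1 had 2 closely matched rows (adjusted p = 0.433 and 0.456), and its partner chain Col1a2 had 3 rows from 30.2 to 52.6. In the first Col1a1 row, wildtype replicate 1 (0.009) lay beside mutant replicate 5 (0) while wildtype replicate 4 was at 1, so the wildtypes spanned nearly the whole range. The Col1a1 percentile of that row went from 51.0 to 90.8 as single arrays were left out.

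Col3a1, the chain of type III collagen found in extensible tissues, had rows at 69.3 and 41.5 (adjusted p = 0.41 and 0.746). Its stronger row separated the groups, with mutants between 0 and 0.474 and wildtypes between 0.723 and 1, although its absolute t was only 1.73. Col5a1 and Col5a2, which set fibril width, had 5 rows between 36.9 and 46.7.
Basement membrane collagens had the lowest median percentile of the roles, at 11.7 over 3 rows, but the highest, at 64.8, with array number as a covariate. Col4a1 had rows at 27.1 and 8.50 (adjusted p = 0.857 and 0.963) and Col4a2, which pairs with it in the type IV network, had one at 11.7. In the weaker Col4a1 row, mutant replicate 4 stood at 1 and wildtype replicate 1 at 0, so each group held an array at the far side. Type VI collagen, a beaded filament around cells, was split. Col6a1 had a row at 87.7 (adjusted p = 0.135), with mutants at 0.308, 0.141, 0, 0.425 and 0.451 and wildtypes at 0.611, 0.408, 0.79 and 1. Only wildtype replicate 2 lay among the mutants there. Its partner chains were lower, Col6a2 at 45.4 and 22.0 and Col6a3 at 4.17.

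**Figure D4:**
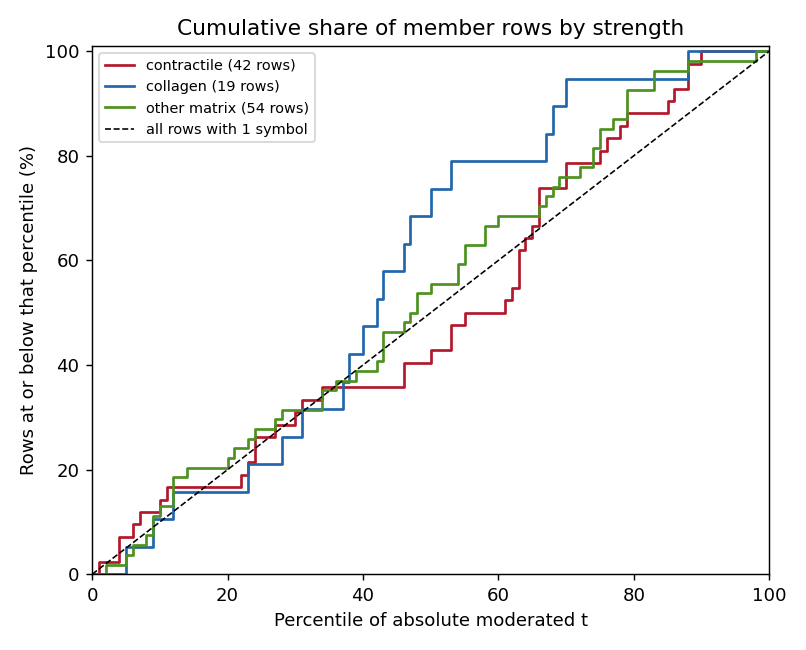
For the contractile (42), collagen (19) and other matrix (54) rows, the lines give the share of rows (y axis, percent) at or below each percentile of absolute t (x axis), and the dashed diagonal is all rows with 1 symbol. The collagen line rises earliest around its median of 41.5, the contractile line runs under the diagonal around its median of 57.1, and every contractile and collagen row lies below the 90th percentile.

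Other matrix genes had 1 of 54 rows past the threshold (1.85%, against 5.19% of all rows), with a median percentile of 46.9. At an unadjusted p under 0.05 there were 4 (7.41%, against 21.1% of all rows). With only the brightest row of each gene, where 8.10% of all genes pass, the count was again 1 (Lum, of 22). The median was then 61.9, on the other side of the middle. Lum has 1 row, so this setting keeps it in any case, and row names hardly carried the level by which the brightest row is chosen. With array number as a covariate the median was 36.0. Proteoglycans and glycoproteins, the proteins that space and bind collagen fibres, had 23 rows with a median of 54.4 and held the strongest.

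After Lum came Dpt, which encodes dermatopontin, a small protein that speeds collagen fibril assembly (percentile 87.3, adjusted p = 0.14). Its mutants lay at 0.331, 0.158, 0, 0.067 and 0.221 and its wildtypes at 0.238, 0.415, 0.622 and 1. A single crossing kept the groups from separating, mutant replicate 1 beyond wildtype replicate 1. Sparc, a collagen-binding secreted protein, had rows at 82.7, 78.5 and 9.96 (adjusted p = 0.202, 0.269 and 0.956). In the strongest Sparc row, mutant replicates 2 and 4 (0.545 and 0.706) lay beyond wildtype replicate 2 (0.48), and in the next, mutant replicate 5 (0.367) lay beyond wildtype replicates 1 and 2 (0.212 and 0.191). Decorin (Dcn), the relative of lumican that also coats fibrils, stood at 74.4 and 60.0, and fibronectin (Fn1) at 76.8 and 54.4. Periostin (Postn) at 20.3 and tenascin C (Tnc) at 23.0 and 5.04, matrix proteins known from tissue repair, were low in the ranking. Rows of Tgfbi ran from 2.00 to 73.1 and of Mfap5, a microfibril protein, from 11.5 to 66.1, and the 2 rows of Fbln2 stood at 42.0 and 26.8.

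Enzymes and inhibitors that remodel matrix had 18 rows, 1 at an unadjusted p under 0.05 (5.56%, against 21.1% of all rows). It belonged to Lox, the lysyl oxidase that cross-links collagen and elastin, whose rows stood at 82.5, 78.8 and 47.5 (adjusted p = 0.207, 0.264 and 0.686), and the groups were separate in the first. Mmp2, a gelatinase, had rows at 74.5 and 53.6, and Mmp14, the membrane protease that activates it, had 3 rows within 42.0 to 47.3. The inhibitor Timp2 had 6 rows, the most of any member, from 8.33 to 57.5 with a median of 16.6. Those of Timp3 ran from 35.5 to 71.5.

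Fibroblast markers and forkhead factors had no row at an unadjusted p under 0.05. Pdgfra, the growth factor receptor that marks fibroblasts and the signalling cells under the epithelium, had rows at 65.5, 49.5 and 7.09 (adjusted p = 0.468, 0.666 and 0.97), and the groups overlapped in all 3. Pi16, a marker of adventitial fibroblasts, stood at 33.7 and 23.5, and the 3 rows of vimentin (Vim), the filament of mesenchymal cells, between 42.4 and 57.1. Foxf1 had rows at 78.6 and 67.0 (adjusted p = 0.267 and 0.445). In the stronger, mutants lay at 0.54, 0.544, 0, 0.834 and 0.537 and wildtypes at 0.866, 0.638, 1 and 0.823. Mutant replicate 4 was the array among the wildtypes. Its relative Foxf2 had rows at 45.8 and 8.05, and Foxl1, which marks the signalling fibroblasts next to crypts, had 1 row at 4.26 (adjusted p = 0.983), in which mutant replicate 1 at 0 and mutant replicate 5 at 1 were the ends of the range.

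Genes of the same systems that were not members gave a comparison. The wider contractile list had 4 of 75 rows past the threshold (5.33%, near the 5.19% of all rows) and a median percentile of 55.5. They were 2 rows of Tpm3, a tropomyosin of many cell types (limma adjusted p = 0.0179 and 0.0438), and rows of Parva (0.0296) and Tln1 (0.0453). Parva and Tln1 link integrins to actin. The remaining rows of these genes did not pass, Tpm3 from 0.197 to 0.984, Parva at 0.695 and Tln1 at 0.59 and 0.956. The wider collagen list had 1 of 21 (4.76%), a row of the basement membrane chain gene Col4a5 (0.0387), and a median of 55.0. The other Col4a5 row stood at 0.0914. The wider matrix list had 4 of 71 (5.63%) and a median of 47.7, so all 3 shares were near that of all rows. The matrix rows that passed included 2 of the collagen prolyl hydroxylase subunit P4ha1 (0.0235 and 0.0331) and that of the laminin chain gene Lama2 (0.0288). A row of the collagen chaperone gene Serpinh1 passed too (0.0317), and its other row stood at 0.265. The difference between these lists and the members was not tested.

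Markers of the other cells of a colon were counted in the same way, and their part in the result was not tested. Epithelial markers had 5 of 19 rows past the threshold (26.3%, against 5.19% of all rows) and a median percentile of 77.6. Among them were both rows of the intestinal homeobox gene Cdx2 (limma adjusted p = 0.00522 and 0.0279). Of the 4 rows of the chloride exchanger Slc26a3, 2 passed (0.0207 and 0.0317). A row of the stem cell receptor Lgr5 passed too (0.0342), and its other row stood at 0.804. Mesothelial markers had 1 of 11 (9.09%), a row of Upk3b (0.0347) whose other row stood at 0.0833, with a median of 89.2. Endothelial and pericyte markers had 2 of 26 (7.69%), rows of the pericyte genes Kcnj8 (0.0313) and Rgs5 (0.0376), with a median of 46.6. The remaining rows of Rgs5 stood between 0.53 and 0.711. Interstitial cells of Cajal had 0 of 10 (median 61.1), enteric neurons and glia 0 of 24 (49.6), immune cells 0 of 16 (36.8) and skeletal muscle 0 of 11 (57.9). At an unadjusted p under 0.05, limma gave 1, 4, 4 and 1 rows in these 4 lists, against 9 epithelial (47.4%), 6 mesothelial (54.5%) and 6 endothelial and pericyte rows (23.1%) and 21.1% of all rows. Summed marker levels are not given, because row names hardly carried the level.

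**Figure D5:**
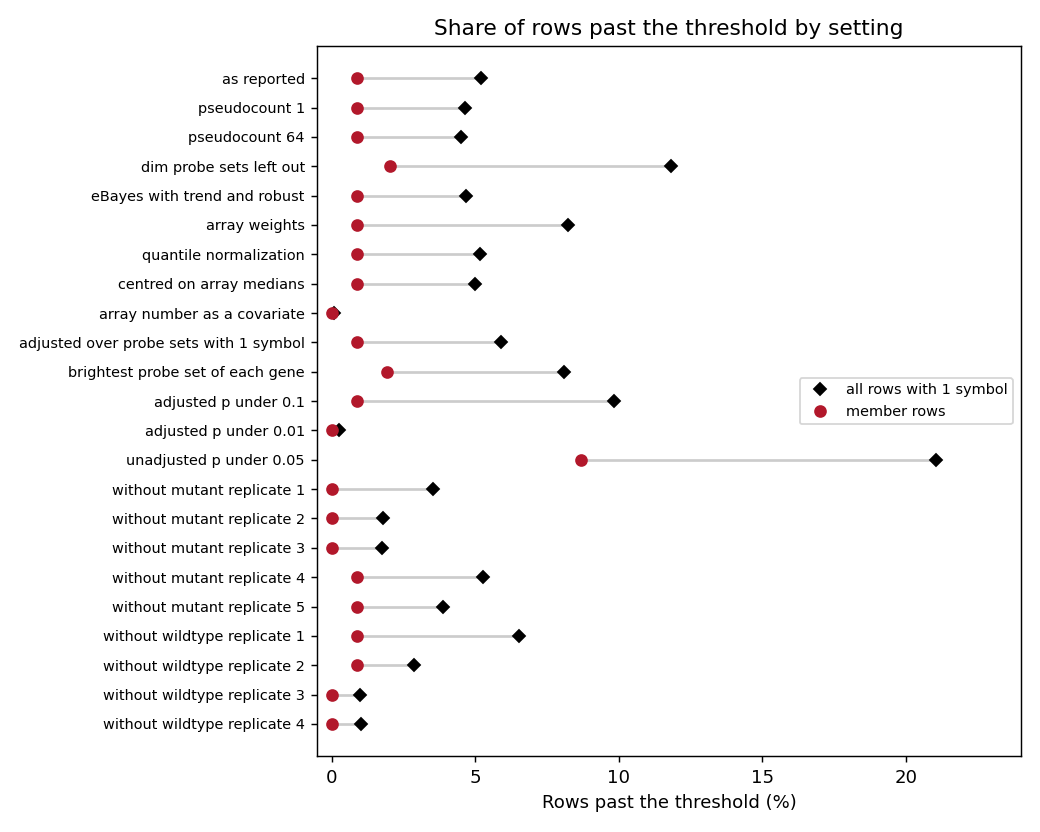
The share of rows past the threshold (x axis, percent) is drawn for member rows (circles) and for all rows with 1 symbol (diamonds) under each setting (y axis). The member share was below the share of all rows in every setting drawn, from 0.87% against 5.19% as reported to 8.70% against 21.1% at an unadjusted p under 0.05. The settings reuse the same arrays and are not independent. With array number as a covariate 0.0773% of all rows passed, a share too small for 115 rows to fall clearly below. The setting without probe sets that may cross-hybridise is not drawn.

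Arrays shared the ends of the member rows unevenly. Counting how often an array was the highest or lowest of a member row gave from 16.5% of rows (mutant replicates 2 and 5 and wildtype replicate 1) to 30.4% (wildtype replicate 4). Over all rows wildtype replicate 4 was an extreme in 22.3%, and the range was from 16.2% (mutant replicate 5) to 29.3% (mutant replicate 4). With each array left out in turn, between 0 and 1 member rows passed, while the share over all rows ranged from 0.987% without wildtype replicate 3 to 6.51% without wildtype replicate 1. Of the 115 rows, 24 came from probe sets whose names mark several transcripts or shared probes. Without them the count stayed at 1, over 91 rows.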

How the data were processed

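Whole-colon RNA (100 ng per sample) was hybridised to 1 Affymetrix array per sample. The authors deposited linear-scale intensities, 1 value per probe set, from Affymetrix Expression Console 1.1 (submitters' processing notes). No summary algorithm or background correction is given in the sources used here. Of 45101 probe sets, 64 controls were left out. The platform annotation gave 1 symbol to 34945, several to 932 and none to 9160. No member symbol stood in a row with several.

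Groups came from the genotype labels. Values were tested as log2(intensity + 16) in R 4.3.3 by limma 3.58.1 with lmFit and eBayes (two-sided, 5 against 4 arrays), adjusted over 45037 probe sets, threshold 0.05, with no filter on low values. The script was tested on simulated data. Lists are described by counts and median percentiles, with no test. Named genes were 13 key members, the 3 genes with the smallest p of each list, and rows past the threshold, with roles given for the others. Members and lists were chosen with earlier results of these data known. Alternatives are in the closing section. The number of arrays limits the precision.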

Additional observations from a re-analysis of the deposited data

Results flagged for a closer look

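In 62 groups of 4 or 5 arrays, covering the 31 rows of the 17 genes chosen for description, 3 had an array whose gap to its nearest neighbour, as a share of the group's range, was above Dixon's 95% value. Chance flags about 1 group in 20. In the Foxf2 row 1447562_at it was mutant replicate 2 (0.887), in the Col4a1 row 1452035_at mutant replicate 4 (0.823) and in the Foxl1 row 1423027_at mutant replicate 1 (0.777). None of these rows passed the test with all arrays.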

How the results depend on the processing

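With array number as a covariate, 0 member and 0 other matrix rows passed, and the median percentiles were 43.3 (members) and 36.0 (other matrix). At an adjusted p under 0.01 these counts were 0 and 0, and at an unadjusted p under 0.05 they were 10 and 4, with 5 contractile and 1 collagen row. Row names hardly carried the level, so the settings that choose rows by level (dim or brightest) are weak checks. Without dim probe sets, which kept 49 member rows, the medians were 50.3 (contractile), 28.6 (collagen) and 54.5 (other matrix). With the brightest row of each gene they were 52.4 (members) and 61.9 (other matrix), with array weights 51.4 (other matrix), with trend and robust 52.5 (contractile), and without probe sets that may cross-hybridise, an alternative added after seeing the data, 53.5 (contractile). A median counted as moved when it differed by more than its SD over the leave-one-out fits (2.56 to 6.85). Leaving out each array gave 0 to 1 member and other matrix rows, 0 contractile and collagen rows, and medians of 43.4 to 51.9 (members), 49.3 to 57.5 (contractile), 30.9 to 52.1 (collagen) and 41.9 to 52.9 (other matrix). Pseudocounts of 1 and 64, quantile normalization, centring and adjusting over rows with 1 symbol left the 4 counts as reported, and the first 4 of these settings moved no median beyond that SD. Over 31 named rows and 22 settings, 656 comparisons (where the row was kept) gave the same call in 641, 7 lost calls, all of Lum, and 8 gained ones, all at the unadjusted threshold. No paired analysis was possible because the labels give the groups no shared replicate numbers.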
